A study of Mus musculus with 8 samples.

Results

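The 34 genes described here encode the machinery that copies DNA in S phase and the enzymes that supply its nucleotides. They are the rows of the deposited table whose symbol is one of a list of 34 named members, and all 34 were found among its 21182 gene symbols. The table comes from RNA sequencing of whole C57BL/6 mouse embryos at embryonic day E6.75, each lysed singly and made into a library with a SMARTer low-input kit and Nextera XT. The 4 Control embryos (columns named 123WT) were compared with 4 embryos labelled Tet1/2/3 TKO, in which the genes of the TET methylcytosine dioxygenases Tet1, Tet2 and Tet3 are knocked out per the labels. The sources used here do not give the alleles, any Cre driver, the litter, the sex or a batch. The comparison asks what loss of the TET enzymes does to transcription around the start of gastrulation.

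As background, replication starts at origins that are licensed in G1, when Cdc6 and Cdt1 load the ring-shaped Mcm2 to Mcm7 helicase onto DNA. In S phase Cdc45 and the GINS proteins join the ring to form the active helicase, primase lays down primers, and the DNA polymerases extend them behind the sliding clamp PCNA. The epiblast at gastrulation is known for very short cell cycles in which S phase takes up much of the time. Ectoplacental and giant cells of the trophoblast, by contrast, can replicate their DNA without dividing.

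Levels are given in RPKM, the authors' read counts divided by gene length and library total, a scale per length on which genes can be compared. Read depth, estimated relative to Control replicate 1, was 0.755 to 1.0 in Control embryos and 0.6 to 1.15 in TKO-labelled embryos, lowest in TKO replicate 1. As a check of the labels, Tet1 stood at 4.93 to 5.76 RPKM in Control against 9.21 to 15.3 RPKM in the embryos labelled TKO (log2 difference 0.97, limma adjusted p = 0.103). The Tet2 ranges were 0.444 to 0.850 and 0.598 to 0.993 RPKM, and those of Tet3 1.73 to 2.08 and 1.14 to 1.68 RPKM. Tet1 was thus higher in the embryos labelled as its knockout, though not past an adjusted p of 0.05, and Tet3 was lower with no overlap. A single value per gene does not show whether particular exons are missing, so these values cannot settle the label. The embryos are therefore called TKO-labelled, and each direction below rests on that label. Markers of maternal decidua, summed over 4 genes, ranged from 3.01 to 494 RPKM in Control and from 19.9 to 420.1 RPKM in TKO-labelled embryos. Epiblast, extraembryonic ectoderm and visceral endoderm markers, which a whole embryo should hold, were all above 0 in every embryo. The libraries are bulk samples, in which fewer cells of a type and less RNA per cell cannot be told apart.

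None of the 34 replication genes passed the threshold between TKO-labelled and Control embryos. The test was limma on log2(RPKM + 1), and a gene was called at a Benjamini-Hochberg adjusted p under 0.05, with the adjustment taken over 10451 genes. All 34 genes were among those tested, since each reached 1 RPKM in 4 embryos or more. Log2 differences are the TKO-labelled minus the Control mean. Over all tested genes 1 had a higher value in TKO-labelled embryos past the threshold (0.00957%) and 0 a lower one (0.0%). At an unadjusted limma p under 0.05, 6 replication genes had higher and 1 had lower values in TKO-labelled embryos, or 17.6% and 2.94%, beside 13.9% and 3.6% of all tested genes. The values of the groups did not overlap in 4 replication genes. Of these Gins2, Prim2 and Tyms were higher (8.82%, against 7.55% of all tested genes) and Rpa2 was lower (2.94%, against 1.86%). These shares lie near the background. The count of 6 was 3 (8.82%) without Control replicate 4 or without TKO replicate 4, where 11% and 8.11% of all tested genes had higher values at that p. Without TKO replicate 3 it was 10 (29.4%), beside 13.0% of all tested genes. The count of 1 was 0 when any Control embryo or TKO replicate 3 was left out, where 2.76% to 3.84% of all tested genes had lower values. Without TKO replicate 1, 36 of all tested genes passed the adjusted threshold and still 0 of the 34. The median log2 difference of the 34 genes was 0.08, beside 0.09 for all tested genes, and 25 of the 34 differences were above 0, or 73.5% against 66.5%.

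The intervals limit how large a difference these embryos can hide. In 22 of the 34 genes the whole 95% confidence interval lay within 0.5 either way on the log2 scale, a fold of 1.41, and in 33 within 1, a fold of 2. These are 64.7% and 97.1%, beside 50.9% and 94.2% of all tested genes. The gene outside the wider limit was Gins2, whose interval ran from 0.36 to 1.021. Differences ran from -0.26 for Rpa3 to 0.69 for Gins2. When the embryos were rescaled by median ratios, the median of the 34 genes was -0.0002 and 17 differences were above 0, with a median of 0.02 over all tested genes. Under that scaling 3 replication genes were higher at an unadjusted p under 0.05, namely Gins2, Prim2 and Tyms (8.82%, beside 8.03% of all tested genes), and Rpa2 was lower (2.94%, beside 6.44%). Among all tested genes at that p, the part with higher values moved from 79.4% to 55.5%.

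**Figure D1:**
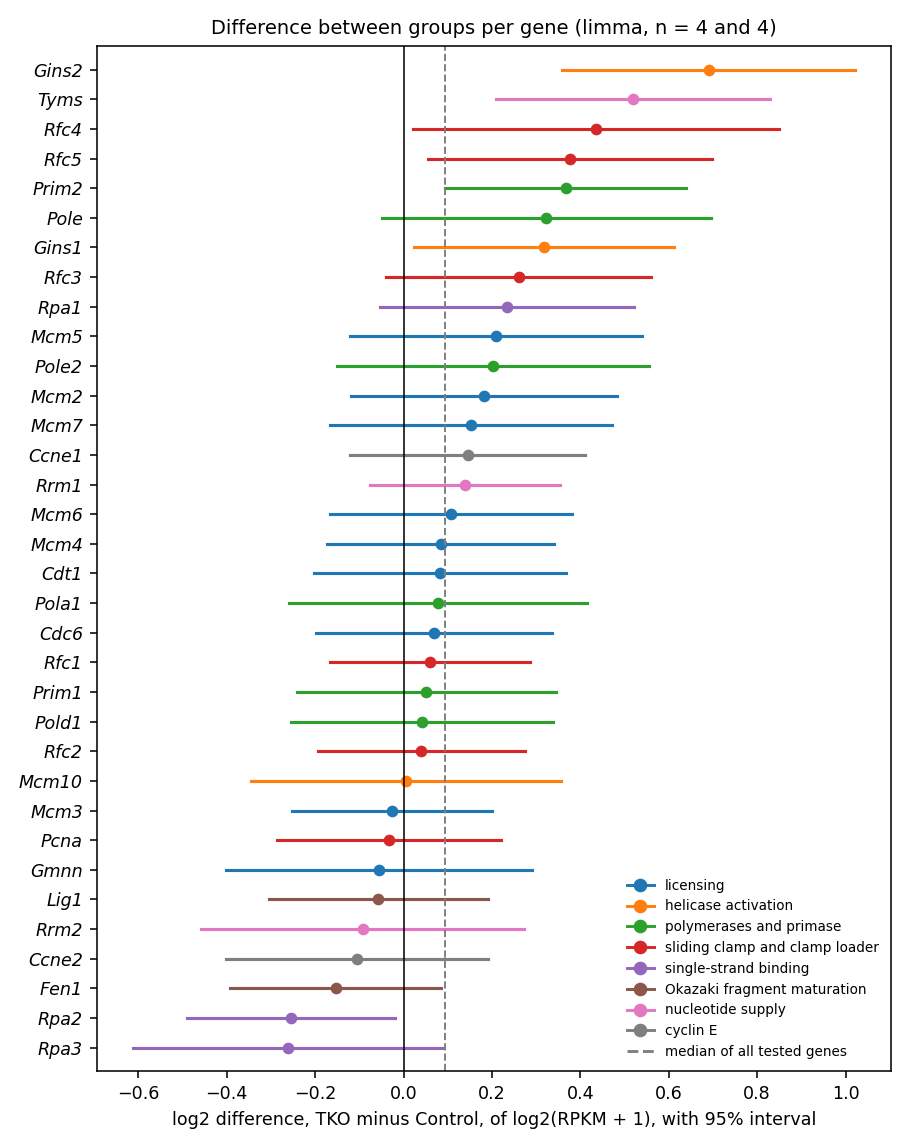
Log2 difference (TKO-labelled minus Control, on the log2(RPKM + 1) scale) of each of the 34 genes with its 95% confidence interval from limma (n = 4 and 4), coloured by role; the dashed line is the median of all tested genes, 0.09. Gins2 at 0.69 and Tyms at 0.52 lie farthest to the right, Rpa3 at -0.26 and Rpa2 at -0.26 farthest to the left, and most intervals include 0.

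The levels themselves spanned a wide range. Pcna, the sliding clamp, was the most abundant of the 34 at 320.4 ± 40.7 RPKM in Control embryos (mean ± SD, n = 4; below, of a pair of such values the first is Control and the second TKO-labelled). It was followed by Gmnn, which encodes the licensing inhibitor geminin, at 255 ± 46.3 RPKM, and by Rrm2, the small subunit of ribonucleotide reductase, at 233 ± 47.5 RPKM. These neighbours in the order overlapped one another between embryos. At the low end stood Pole, the catalytic subunit of the leading-strand polymerase epsilon, at 4.79 ± 0.374 RPKM, and the cyclin gene Ccne2 at 6.84 ± 0.651 RPKM. Values of a gene were close between embryos of 1 group. The coefficient of variation over 4 embryos had a median of 10.6% in Control (from 2.78% for Rpa2 to 22.5% for Rfc4). In TKO-labelled embryos its median was 13.4% (from 5.43% for Pcna to 27.9% for Pole), and it was the larger of the pair in 20 of the 34 genes. This difference in spread was not tested.

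**Figure D2:**
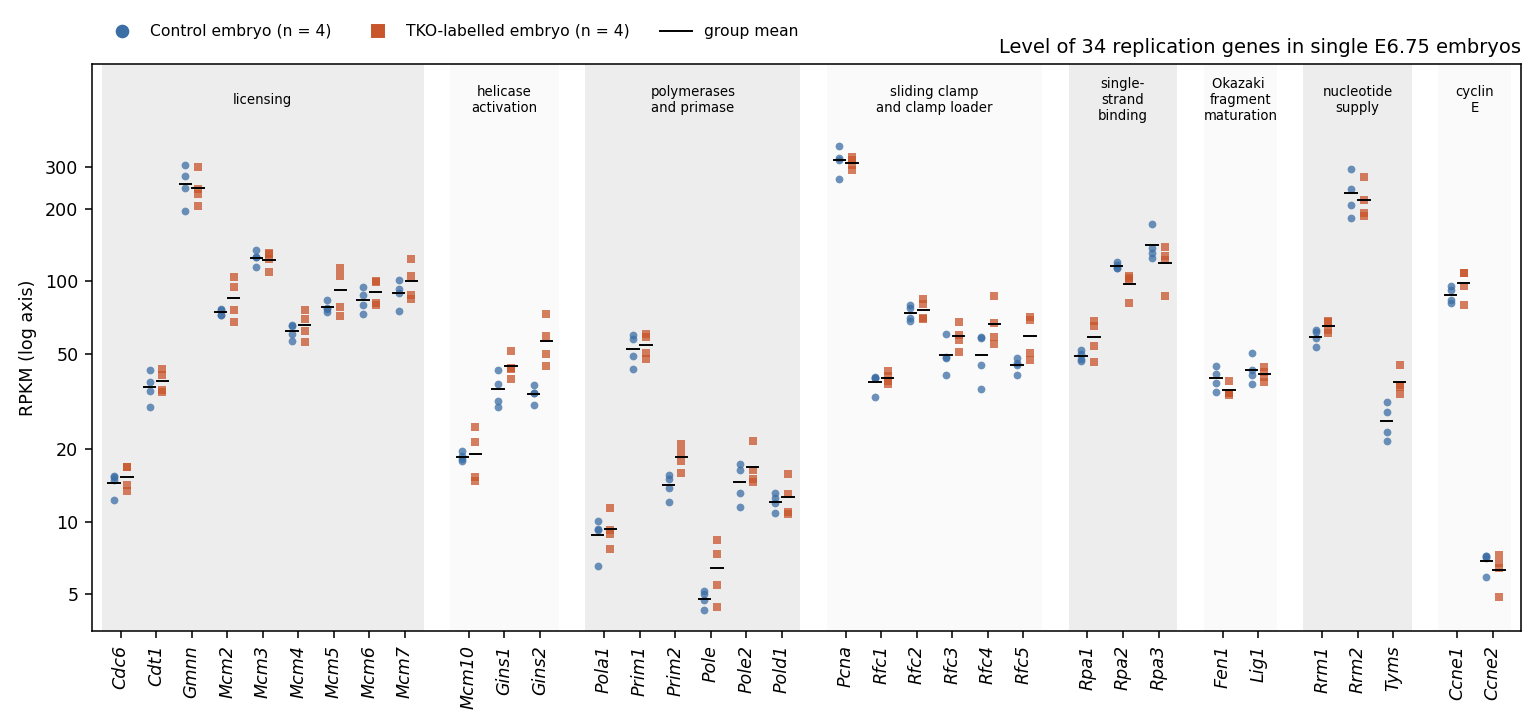
RPKM (log axis) of the 34 genes in each embryo, grouped by role, with circles for the 4 Control and squares for the 4 TKO-labelled embryos and a bar at each group mean. Levels run from 4.30 RPKM (Pole) to 367 RPKM (Pcna), and the groups are separate in Gins2, Prim2, Tyms and Rpa2.

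Of the 9 licensing genes 0 passed the threshold and 0 had an unadjusted p under 0.05, beside 13.9% higher and 3.6% lower among all tested genes. The median log2 difference was 0.08, beside 0.09 for all tested genes. Cdc6, the ATPase that recruits the helicase to the origin, averaged 14.6 ± 1.51 RPKM in Control against 15.3 ± 1.80 RPKM in TKO-labelled embryos (0.07, interval -0.20 to 0.34). Its partner Cdt1, which delivers the helicase, averaged 36.5 ± 5.29 and 38.5 ± 4.18 RPKM (0.08, interval -0.20 to 0.37). Gmnn, whose product holds Cdt1 inactive after origins have fired, averaged 244 ± 38.7 RPKM in TKO-labelled embryos (-0.06, interval -0.40 to 0.29). For these 3 genes the groups overlapped over most of their ranges. The sign of each of the 3 differences turned under 3 of the 17 alternatives, median-ratio scaling among them for Cdc6 and Cdt1.

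The 6 subunits of the Mcm ring, which enter it as 1 copy each, ranged in Control embryos from 61.9 RPKM for Mcm4 to 126 RPKM for Mcm3. Mcm2, Mcm5, Mcm6 and Mcm7 lay between them at 74.4, 78.3, 83.9 and 89.6 RPKM. The same order of the lowest and the highest subunit held in the TKO-labelled means, 66.0 and 123 RPKM. Mcm5 was the subunit with the largest difference and was measured at 76.7, 77.8, 84.1 and 74.7 RPKM in Control replicates 1 to 4 and at 114, 72.0, 78.0 and 105 RPKM in TKO-labelled replicates 1 to 4. TKO replicates 1 and 4 stood above all Control embryos, whereas TKO replicate 2 was the lowest of the 8 (log2 difference 0.21, limma adjusted p = 0.487). Mcm2 also had TKO replicates 1 and 4 on top, at 72.4, 76.0, 72.3 and 76.7 RPKM in Control against 104, 76.1, 67.6 and 94.9 RPKM in TKO-labelled embryos (0.18, limma adjusted p = 0.511). Here TKO replicate 3 was the lowest embryo. The log2 differences of Mcm3, Mcm4, Mcm6 and Mcm7 were -0.03, 0.08, 0.11 and 0.15, and with median-ratio scaling that of Mcm4 turned to -0.0011.

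Promoter sequence is shown for the genes of this set because many share a site type of E2F, the transcription factor family that turns on S-phase genes at the G1/S boundary. Windows of 250 bases before to 50 after a start were taken from RefSeq on build GRCm38.p6, another build than the mm9 named for the expression data, and were matched by symbol for 26 of the 34 genes (30 windows). Gmnn, Mcm4, Gins1, Gins2, Prim2, Pole, Rfc2 and Ccne2 had no entry. The letters searched were TTTCCCGC, TTTGGCGC, TTTCGCGC and TTTGCCGC on both strands, and matches could overlap one another. Such letters stood in 11 of the 30 windows (36.7%) and in 744 of all 32851 windows of the same length (2.26%). The 11 windows belong to 11 genes, Cdc6, Cdt1, Mcm3, Mcm5, Mcm6, Mcm7, Pola1, Pole2, Pold1, Rfc3 and Lig1. The stretches that lie before the start are printed 5′ to 3′ in the direction of the gene with the matches in capitals, and Tyms is added as the gene with an entry that had the largest difference and no match.
Cdc6, + strand, chr11:98907983-98908050: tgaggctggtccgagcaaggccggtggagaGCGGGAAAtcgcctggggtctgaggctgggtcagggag
Mcm5, + strand, chr8:75109326-75109397: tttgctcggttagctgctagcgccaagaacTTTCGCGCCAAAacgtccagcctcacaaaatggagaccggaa
Mcm6, - strand, chr1:128359715-128359845: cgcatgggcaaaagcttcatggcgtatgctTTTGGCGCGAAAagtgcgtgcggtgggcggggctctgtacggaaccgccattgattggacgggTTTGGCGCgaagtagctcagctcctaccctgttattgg
Mcm7, - strand, chr5:138172011-138172078: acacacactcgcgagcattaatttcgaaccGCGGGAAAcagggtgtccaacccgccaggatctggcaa
Pola1, - strand, chrX:93632256-93632323: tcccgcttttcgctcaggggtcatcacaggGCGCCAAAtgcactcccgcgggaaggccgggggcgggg
Rfc3, - strand, chr5:151651209-151651248: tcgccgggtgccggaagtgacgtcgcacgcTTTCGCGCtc
Tyms, - strand, chr5:30073626-30073705: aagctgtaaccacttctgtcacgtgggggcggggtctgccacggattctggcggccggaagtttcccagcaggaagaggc

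In Mcm5 and in the distal part of the Mcm6 stretch 2 matches on opposite strands overlap by 4 bases and form a single palindrome-like run of 12 capitals. All matches in the other 5 genes, and a further one each in Mcm7 and Rfc3, lie after the start. A match is a description of letters and shows no binding. The 11 genes with a match had log2 differences of -0.06 to 0.26 with a median of 0.08. The 15 genes with an entry and no match ran from -0.26 to 0.52 with a median of 0.06. The windows of the set held a median of 22 CpG dinucleotides (5 to 41), against 7 in all windows. Each searched form holds a CpG, so the shares of windows with a match, given above, do not compare windows of like CpG content. DNA methylation at these promoters was not measured in these libraries.

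Helicase activation held the gene with the largest difference. Gins2 encodes a subunit of the GINS complex, the 4-protein clasp that activates the Mcm ring together with Cdc45. It was measured at 34.4, 37.0, 30.6 and 34.5 RPKM in Control against 59.4, 44.3, 49.7 and 72.9 RPKM in TKO-labelled replicates 1 to 4. Every TKO-labelled embryo lay above every Control embryo, with TKO replicate 4 the highest and TKO replicate 2 nearest to the Control values. The means were 34.1 ± 2.64 and 56.6 ± 12.6 RPKM, a fold of 1.66 (log2 difference 0.69, SE 0.15, limma adjusted p = 0.136). It did not pass the threshold, and its adjusted p ranged from 0.0881 to 0.349 over 17 alternatives. In the GENCODE M21 annotation 67.3% of the exon bases of Gins2 also lie in exons of Gse1 on the opposite strand, and the strand setting of the counting is not given. Gse1 itself was at 3.10 to 3.55 RPKM in Control against 2.56 to 5.59 RPKM in TKO-labelled embryos, and was highest in TKO replicate 1. The part of reads from the shared bases in the Gins2 values was not tested.

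Gins1, another GINS subunit, was measured at 37.3, 42.8, 31.8 and 30.2 RPKM in Control against 43.6, 43.1, 39.3 and 51.4 RPKM in TKO-labelled embryos. The groups overlapped through Control replicate 2, and TKO replicate 4 was again the highest (log2 difference 0.32, SE 0.13, limma adjusted p = 0.255). The partners outside the 34 genes were read from a separate list of origin and helicase genes. Gins4 had 40.1, 42.3, 40.0 and 41.5 RPKM in Control against 55.4, 49.1, 47.5 and 56.2 RPKM in TKO-labelled embryos, with no overlap (0.33, limma adjusted p = 0.173). Gins3, named after its value was seen, had overlapping ranges of 5.42 to 6.07 and 4.47 to 6.63 RPKM (0.01, limma adjusted p = 0.968). The values of the 4 GINS genes were thus separate in 2 and overlapped in 2, while 7.55% of all tested genes were separate with higher values. None of the 4 passed the adjusted threshold, and Gins4 was named for its small unadjusted p in its list. Mcm10, a scaffold needed for helicase activation and polymerase alpha loading, had nearly equal means of 18.6 ± 0.744 and 19.1 ± 4.87 RPKM (0.01, interval -0.35 to 0.36). Its TKO-labelled values were the more spread, at 24.9, 15.4, 14.8 and 21.5 RPKM, on both sides of the Control range of 17.96 to 19.6 RPKM. The Mcm10 difference turned sign under 7 of the 17 alternatives, median-ratio scaling among them.

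Among polymerase and primase genes all 6 differences were above 0 (median 0.14), 0 passed the threshold and 1 had an unadjusted p under 0.05 (16.7%). Over all tested genes 66.5% of the differences were above 0, the median was 0.09, and 13.9% were higher at that p. With median-ratio scaling the differences of Prim1 and Pold1 turned to -0.033 and -0.0386. Prim2, the regulatory subunit of primase that takes part in primer synthesis, was measured at 13.9, 15.1, 12.1 and 15.7 RPKM in Control against 19.5, 17.9, 15.9 and 21.1 RPKM in TKO-labelled embryos. The lowest TKO-labelled value lay just above the highest Control value. Its log2 difference was 0.37 (SE 0.12, limma adjusted p = 0.2, 0.169 to 0.673 over the alternatives). Prim1, the catalytic subunit, averaged 52.4 ± 7.69 and 54.2 ± 6.42 RPKM (0.05) and was thus the more abundant of the pair. Pola1, the catalytic subunit of polymerase alpha, which extends the primers, averaged 8.80 ± 1.55 and 9.32 ± 1.52 RPKM (0.08).

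Pole was measured at 5.13, 5.03, 4.30 and 4.71 RPKM in Control against 8.38, 5.46, 4.43 and 7.33 RPKM in TKO-labelled embryos. TKO replicates 1 and 4 were well above the Control range and TKO replicate 3 within it (log2 difference 0.32, interval -0.05 to 0.70, limma adjusted p = 0.345). The accessory subunit gene Pole2 averaged 14.6 ± 2.73 and 17.0 ± 3.20 RPKM (0.20). Pold1, the catalytic subunit of the lagging-strand polymerase delta, averaged 12.1 ± 0.9745 and 12.6 ± 2.35 RPKM (0.04, interval -0.26 to 0.34).

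Pcna, the most abundant gene, had 319, 367, 268 and 327 RPKM in Control against 321, 306, 291 and 329 RPKM in TKO-labelled embryos, with the TKO-labelled values inside the Control range (-0.03, interval -0.29 to 0.22). Pcna has 2 annotated pseudogenes named after it, Pcna-ps1 and Pcna-ps2, among which reads could be split. The 5 genes of replication factor C, the ring that opens the clamp and loads it onto primed DNA, had differences of 0.04 to 0.43, of which those of Rfc1 and Rfc2 turned to -0.0248 and -0.0451 with median-ratio scaling. Rfc1, the large subunit, averaged 38.1 ± 3.33 and 39.7 ± 2.29 RPKM (0.06), and the small subunit Rfc2 74.0 ± 5.23 and 76.3 ± 7.45 RPKM (0.04). Rfc3, another small subunit, averaged 49.4 ± 8.04 and 59.1 ± 7.04 RPKM (0.26, limma adjusted p = 0.343).

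Rfc4 and Rfc5, the other small subunits, were the clamp-loader genes with an unadjusted p under 0.05. Rfc4 was measured at 58.5, 58.3, 35.7 and 44.9 RPKM in Control against 58.5, 66.9, 54.7 and 87.0 RPKM in TKO-labelled embryos. The groups overlapped, with Control replicate 3 the lowest and TKO replicate 4 the highest (log2 difference 0.43, SE 0.19, limma adjusted p = 0.266). Rfc5 had 44.9, 45.9, 47.9 and 40.7 RPKM in Control against 69.1, 50.5, 47.0 and 70.9 RPKM in TKO-labelled embryos. TKO replicates 1 and 4 were well above the rest, and TKO replicate 3 lay within the Control range (0.38, SE 0.15, limma adjusted p = 0.231). Exons of Rfc4 and Rfc5 overlap those of Eif4a2 and Wsb2 on the opposite strand, over 12.7% and 10.7% of their bases. The log2 differences of Eif4a2 and Wsb2 were 0.23 and 0.0051.

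Replication protein A, the trimer that coats single-stranded DNA, held the only one of the 34 genes with lower values at an unadjusted limma p under 0.05. Rpa2, the middle subunit and a substrate of checkpoint kinases, was measured at 113, 120.5, 114 and 117 RPKM in Control against 101, 106, 81.5 and 103 RPKM in TKO-labelled embryos. Every TKO-labelled embryo lay below every Control embryo, and TKO replicate 3 was the lowest. Its means were 116 ± 3.23 and 97.8 ± 11.1 RPKM (log2 difference -0.26, SE 0.11, limma adjusted p = 0.255, 0.226 to 0.685 over the alternatives). Rpa1, the large DNA-binding subunit, had 47.6, 49.96, 46.7 and 52.0 RPKM in Control against 68.6, 54.1, 46.3 and 65.0 RPKM in TKO-labelled embryos, on both sides of the Control range (0.23, limma adjusted p = 0.373). Rpa3, the small subunit, had 137, 173, 125 and 131 RPKM in Control embryos, and 87.0, 139, 128 and 123 RPKM in those labelled TKO. Its lowest value, in TKO replicate 1, stood well below the other 7 embryos (-0.26, interval -0.61 to 0.09, limma adjusted p = 0.417). TKO replicate 1 thus held the highest Rpa1 and the lowest Rpa3 value of the 8 embryos. No test compared these subunits with one another.

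The genes that finish Okazaki fragments, the short pieces of the lagging strand, had small negative differences. Fen1, the nuclease that trims the primer flap, averaged 39.5 ± 4.31 and 35.3 ± 2.31 RPKM (-0.15, interval -0.39 to 0.09). Lig1, the ligase that seals the nick, averaged 42.9 ± 5.43 and 41.0 ± 2.51 RPKM (-0.06, interval -0.30 to 0.19). For each the TKO-labelled range lay inside or across the lower part of the Control range, and limma gave an adjusted p of 0.481 for Fen1 and 0.819 for Lig1. Exons of Fen1 overlap the antisense gene Gm10143 over 78.8% of their bases and Tmem258, on the opposite strand, over 130 bases. Reads of Fen1 could therefore include those transcripts. Tmem258 averaged 230.5 ± 30.1 and 226.4 ± 54.7 RPKM, and its part in the Fen1 values was not tested.

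Of the 3 genes of nucleotide supply, 1 had an unadjusted limma p under 0.05 (33.3%, beside 13.9% of all tested genes with higher values). This was Tyms, thymidylate synthase, which makes the thymine nucleotide of DNA, dTMP. It was measured at 31.6, 28.6, 21.6 and 23.7 RPKM in Control against 36.3, 37.1, 33.9 and 44.9 RPKM in TKO-labelled embryos. The groups did not overlap, and the gap between TKO replicate 3 and Control replicate 1 was small beside the spread within groups. The means were 26.4 ± 4.54 and 38.0 ± 4.77 RPKM, a fold of 1.44 (log2 difference 0.52, SE 0.14, limma adjusted p = 0.16, 0.125 to 0.405 over the alternatives). A pseudogene, Tyms-ps, is annotated, and its share of the reads is not known. Of the ribonucleotide reductase subunits, which turn ribonucleotides into deoxyribonucleotides, the large subunit Rrm1 averaged 59.0 ± 4.25 and 65.0 ± 3.64 RPKM (0.14). The small subunit Rrm2 had 208, 184, 294 and 243 RPKM in Control against 193, 187, 217 and 271 RPKM in TKO-labelled embryos, with wide overlap (-0.09, interval -0.46 to 0.27). Control replicate 3, which was the lowest embryo in 15 of the 34 genes, held the highest Rrm2 value.

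Cyclin E drives entry into S phase through Cdk2. Ccne1 averaged 88.1 ± 6.600 RPKM in Control against 98.0 ± 13.4 RPKM in TKO-labelled embryos (0.14, interval -0.12 to 0.41). The paralog Ccne2 averaged 6.84 ± 0.651 and 6.33 ± 1.04 RPKM (-0.11, interval -0.40 to 0.19), with its lowest value, 4.86 RPKM, in TKO replicate 1. In each embryo Ccne1 was therefore the main cyclin E transcript, by 11.8 to 22.2 times.

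Ratios within an embryo do not depend on how its library was scaled, and 4 were compared by an exact two-sided permutation test over the 70 assignments of the 8 embryos, whose smallest possible p is 0.0286. The Prim2/Prim1 ratio was 0.241, 0.253, 0.280 and 0.321 in Control replicates 1 to 4 and 0.389, 0.305, 0.336 and 0.349 in TKO-labelled replicates 1 to 4. Only Control replicate 4 reached into the TKO-labelled range (log2 difference of the ratio 0.34, exact permutation p = 0.0571, 0.229 after Benjamini-Hochberg adjustment over the 4 ratios). The Rrm2/Rrm1 ratio averaged 3.92 ± 0.550 in Control and 3.34 ± 0.541 in TKO-labelled embryos (exact permutation p = 0.229, adjusted 0.305). That of Cdt1 to its inhibitor Gmnn averaged 0.145 ± 0.0201 and 0.162 ± 0.0388, with 0.210 in TKO replicate 1 (exact permutation p = 0.457, adjusted 0.457). The Ccne1/Ccne2 ratio averaged 12.9 ± 0.887 and 15.9 ± 4.33, and was highest, at 22.2, in TKO replicate 1 (exact permutation p = 0.2, adjusted 0.305). All 4 ratios overlapped between the groups.

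Within each group some embryos held many of the highest or lowest values. TKO replicate 4 held the highest of the 8 values in 12 genes and TKO replicate 1 in 11, whereas TKO replicate 3 held it in 0 genes and the lowest value in 6. Among Control embryos replicate 3 held the lowest value in 15 genes and replicate 2 the highest in 5. The median log2 deviation of the 34 genes from the Control mean was 0.22, 0.06, -0.08 and 0.23 in TKO-labelled replicates 1 to 4. In Control replicates 1 to 4 it was 0.03, 0.10, -0.15 and -0.0026. Over all tested genes the median deviation was 0.08, 0.06, 0.07 and 0.14 in TKO-labelled replicates 1 to 4. It was 0.04, -0.01, -0.05 and 0.03 in Control replicates 1 to 4. TKO replicate 3 thus lay below the Control mean in most of these genes, while over all tested genes its median deviation was 0.07. How often each embryo held the highest or lowest value over all tested genes was not counted.

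**Figure D3:**
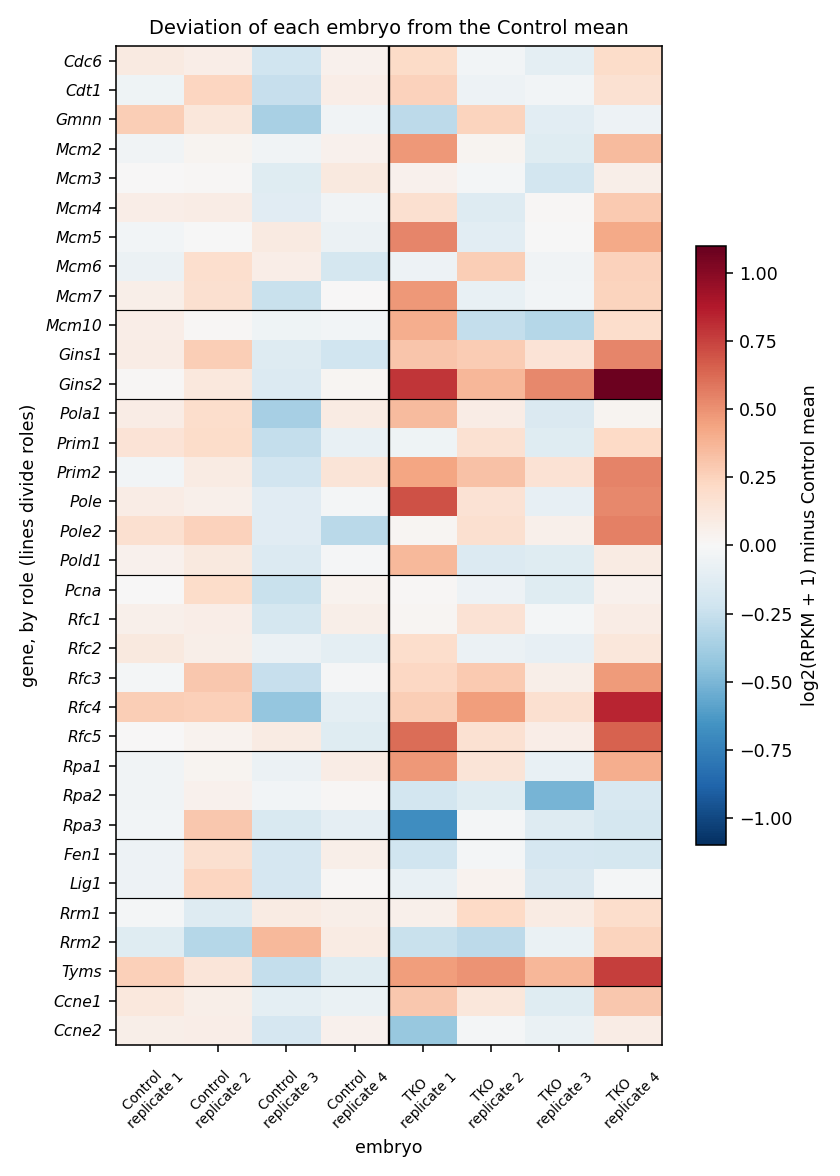
Deviation of each embryo from the Control mean, as log2(RPKM + 1), for the 34 genes (rows, grouped by role) in the 8 embryos (columns, Control left of the line). TKO replicates 1 and 4 are mostly above the Control mean, with the highest deviation, 1.08, in Gins2 of TKO replicate 4, while Rpa2, Rpa3 and Fen1 are below it in all 4 TKO-labelled embryos.

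Marker lists of other cell types moved between the same embryos. Decidual markers summed to 494 RPKM in Control replicate 3 and 420.1 RPKM in TKO replicate 3, the highest embryo of each group and the one with the lowest median of the 34 genes. They were lowest in Control replicate 2, at 3.01 RPKM, the Control embryo with the highest median. Among TKO-labelled embryos the lowest decidual sum, 19.9 RPKM, was in TKO replicate 2, whose median of the 34 genes, 0.06, lay below those of TKO replicates 1 and 4, so the order was not the inverse of the decidual sum there. The 6 epiblast markers summed to 840.3 and 653 RPKM in TKO replicates 1 and 4, to 564 and 446 RPKM in TKO replicates 2 and 3, and to 421 to 595 RPKM in Control embryos. The epiblast genes did not move together. Dnmt3b was the largest part of the sum in every embryo. It was highest in TKO replicate 1 at 413 RPKM, next in Control replicate 2 at 371 RPKM, and lowest in TKO replicate 3 at 244 RPKM. Pou5f1 and Utf1 were highest in TKO replicates 1 and 4, at 238 and 155 RPKM for Utf1, whereas Fgf5, Tdgf1 and Nanog were highest in TKO replicate 2, and Nanog in TKO replicate 4 was at 6.40 RPKM, above only Control replicate 1. The 8 parietal endoderm markers summed to at most 199 RPKM in Control, 165 RPKM in TKO replicate 1, and 382 to 578 RPKM in the other TKO-labelled embryos. Of the ectoplacental and giant cell markers, Tpbpa, Prl2c2 and Ctsq were at 0 in at least 1 embryo, and the list summed to 129 RPKM in TKO replicate 3 and at most 31.3 RPKM in the others. Of the sum in TKO replicate 3, 108 RPKM was the giant cell gene Prl3d1 alone, while Ascl2 and Hand1 were at 16.6 and 3.39 RPKM there, near their Control values. Visceral endoderm markers summed to 336 to 1191 RPKM in Control, and to 716 to 879.9 RPKM in TKO-labelled embryos. For extraembryonic ectoderm the sums were 90.2 to 143 and 85.6 to 127 RPKM. The 5 blood markers found in the table, of 8 listed, summed to 0.892 to 30.5 and 0.460 to 23.0 RPKM, again highest in Control replicate 3 and TKO replicate 3, with Lyz2, S100a8, S100a9 and Ngp at 0 in at least 1 embryo.

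With the level of a marker list as a covariate in the model (decidua and epiblast were added after the data were seen), the count of replication genes with higher values at an unadjusted limma p under 0.05 was 10 for parietal endoderm, 4 for decidua and 2 for epiblast, in place of 6. These are 29.4%, 11.8% and 5.88% of the 34, beside 10.4%, 13.3% and 9.8% of all tested genes in the same fits. With the epiblast covariate the median log2 difference of the 34 genes was -0.0052, beside 0.09 for all tested genes. With the parietal endoderm covariate these medians were 0.24 and 0.075. The parietal endoderm markers summed to 100 to 199 RPKM in Control and 382 to 578 RPKM in TKO replicates 2 to 4. That covariate thus runs largely with the label, and the 2 cannot be well told apart in that fit. All 6 epiblast markers had log2 differences above 0, from 0.02 for Dnmt3b to 0.93 for Pou5f1. The epiblast covariate, their mean on the log2 scale, thus also runs in part with the label. Its fit cannot well tell label and epiblast level apart either. Gins2 and Tyms were among the genes at that p in all 3 fits. The part of these cell types in the levels of the replication genes was not tested.

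**Figure D4:**
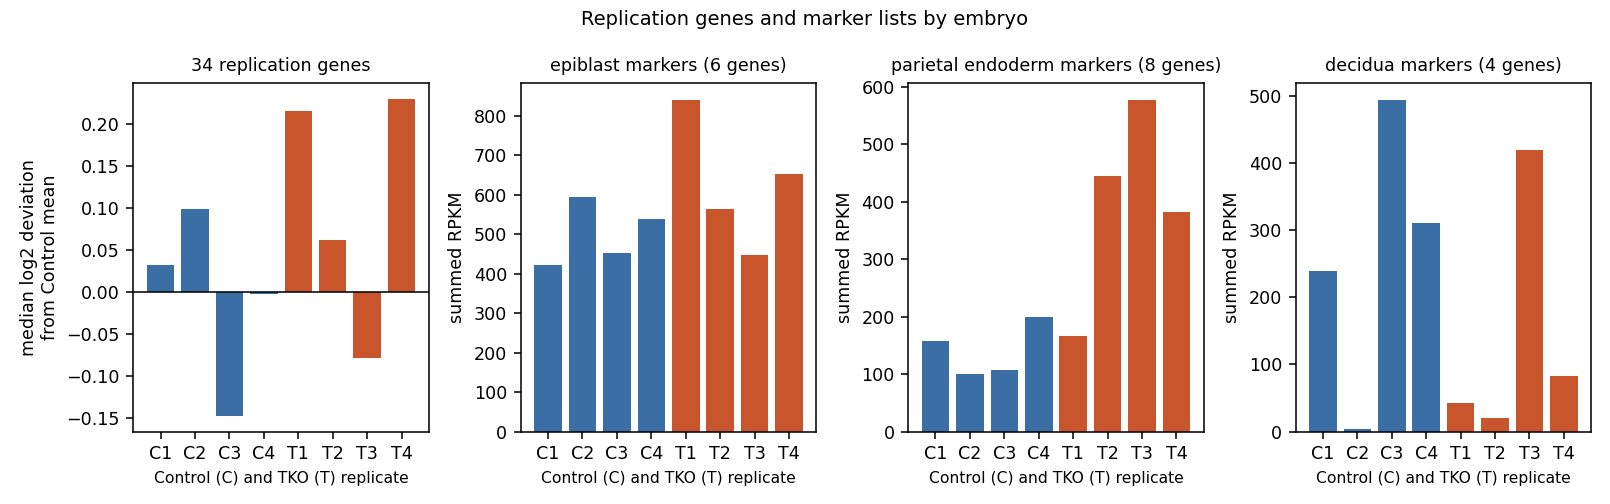
Bars by embryo (C for Control, T for TKO-labelled, with the replicate number) of the median log2 deviation of the 34 genes from the Control mean, and of the summed RPKM of the epiblast, parietal endoderm and decidua markers. C3 and T3 have the lowest median of their group and the highest decidual sum, 494 and 420.1 RPKM.

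Other genes of the pathway were counted in 5 lists that do not hold the 34 genes, and 0 passed the adjusted threshold. Of 17 tested origin and helicase genes 4 had higher values at an unadjusted limma p under 0.05 (23.5%, median log2 difference 0.12). Over all tested genes 13.9% had higher and 3.6% lower values at that p, with a median of 0.09. Orc5, a subunit of the origin recognition complex that marks origins, had 21.8, 22.6, 19.8 and 25.3 RPKM in Control against 36.9, 33.7, 27.7 and 44.96 RPKM in TKO-labelled embryos, with no overlap (0.64, limma adjusted p = 0.139). Cdc45, the helicase partner of GINS, named after its value was seen, had 15.7 to 20.1 and 20.7 to 28.4 RPKM, also with no overlap (0.39, limma adjusted p = 0.192). Of 24 tested fork and chromatin assembly genes 0 had an unadjusted p under 0.05 (median 0.09). The genes with its smallest p were the histone chaperone Asf1a, at 40.4 ± 3.83 and 48.8 ± 6.59 RPKM (0.26), and Chaf1b, a subunit of chromatin assembly factor 1, at 16.2 ± 2.72 and 23.9 ± 9.98 RPKM (0.46).

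The nucleotide list held 29 tested genes of synthesis and salvage, with 4 higher (13.8%) and 0 lower at that p, beside 13.9% and 3.6% of all tested genes. Its median log2 difference was 0.18, beside 0.09 for all tested genes. Tk1, thymidine kinase, which makes dTMP by salvage where Tyms makes it anew, was at 26.3, 29.8, 27.3 and 24.1 RPKM in Control against 41.7, 34.8, 38.8 and 50.8 RPKM in TKO-labelled embryos. It had no overlap and, like Tyms, its highest value in TKO replicate 4 (0.60, SE 0.13, limma adjusted p = 0.134). Adsl, an enzyme of purine synthesis, averaged 42.7 ± 4.13 and 61.2 ± 12.3 RPKM, with no overlap (0.49, limma adjusted p = 0.174).

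Of 26 tested G1/S regulators, 5 had higher and 2 lower values at an unadjusted p under 0.05 (19.2% and 7.69%, median 0.01). Among all tested genes these shares were 13.9% and 3.6%, with a median of 0.09. Cdk4, the kinase that starts the passage from G1 with D cyclins, had 225, 240.5, 213 and 236 RPKM in Control against 369, 287, 275 and 412 RPKM in TKO-labelled embryos, with no overlap (0.53, limma adjusted p = 0.157). E2f6, a repressor of the E2F family, averaged 9.35 ± 0.693 and 12.9 ± 2.12 RPKM, also with no overlap (0.42, limma adjusted p = 0.181). The largest log2 difference of this list was that of Tfdp1, the dimer partner of E2F, which overlapped between the groups at 14.8 to 21.7 and 18.6 to 50.9 RPKM (0.78, limma adjusted p = 0.253). The 2 genes with lower values at that p were the repressor E2f7 (-0.37) and the Cdk inhibitor gene Cdkn1b (-0.48), with limma adjusted p-values of 0.219 and 0.225, and all 3 were named after their values were seen. Mitotic genes, the set most like the 34 genes in its use by dividing cells, had a median of 0.15 over 21 tested genes, with 3 higher and 0 lower at that p (14.3%). The cyclin B genes Ccnb1 and Ccnb2, which drive entry into mitosis, averaged 100.2 ± 9.75 and 145 ± 30.7 RPKM, and 46.8 ± 3.91 and 57.5 ± 6.02 RPKM. Neither gene overlapped between the groups, and the log2 differences were 0.51 (limma adjusted p = 0.173) and 0.29 (0.227). The difference between this set and the replication genes was not tested.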

How the data were processed

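RNA was sequenced from 4 Control and 4 TKO-labelled single embryos. The authors deposited RPKM values, 1 per gene symbol and embryo. Per the submitters' processing notes, HTSeq (no version) and build mm9 were used. The sources used here give no aligner, annotation, gene lengths or strand setting. Groups and replicate numbers came from the sample titles, all 8 columns were mapped, and 0.0666% was the largest share of identical values above 1 RPKM between any pair of columns. Nothing beyond the label of single embryos says how they were sampled. The limma p-values set each group difference against the spread of embryos within groups. They take the embryos as independent, which cannot be checked without the litters.

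Relative depth was read from the commonest ratio of low values (from 0.02 RPKM) between embryos, which equals the inverse ratio of read totals. Whole reads were not recovered, so a count test was not possible. The tool was limma 3.58.1 (R 4.3.3), run without covariates on log2(RPKM + 1) with a variance trend. Genes reaching 1 RPKM in 4 or more embryos entered. P-values were two-sided and adjusted over all tested genes, and the script was tested on simulated data. The log2 scale with its pseudocount of 1 understates the change of low genes. Named in full are the genes with an unadjusted p under 0.05 or no overlap, the highest and lowest of each role, the genes of the ratios, and the 2 genes of each other list with the smallest unadjusted p. The members and lists were chosen with earlier results of these data known. Alternatives were another pseudocount, filters, scaling, variance model, covariates, a replicate block and leaving out each embryo. Older symbols were resolved for 3 listed genes, and 3 globin genes were not used here.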

Additional observations from a re-analysis of the deposited data

Results flagged for a closer look

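Of the 68 groups of 4 values (34 genes in both groups of embryos), 3 held an embryo far from the other 3 by Dixon's ratio of gap to range, and chance flags about 1 in 20 groups. Rfc1 was 33.1 RPKM in Control replicate 3, against 39.5 to 40.0 RPKM in the other Control embryos. Ccne2 was 5.87 RPKM in the same embryo, against 7.07 to 7.23 RPKM. Fen1 was 38.7 RPKM in TKO replicate 2, against 33.7 to 34.4 RPKM in the other TKO-labelled embryos.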

How the results depend on the processing

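Of the 34 genes, 0 passed the adjusted threshold under all 17 alternatives. The lowest adjusted p was 0.0881 (limma, Gins2, without TKO replicate 2). The log2 difference kept its direction throughout in 16 genes. Gins2 and Tyms stayed at an unadjusted p under 0.05 in every setting, and Prim2 in all but the one with the epiblast covariate. The genes past the adjusted threshold numbered 0 without the filter on low values, 2 with a minimum of 5 RPKM, 3 with the parietal endoderm covariate, 0 with the decidua or the epiblast covariate (both added after the data were seen), and 0 to 36 when 1 embryo was left out (36 without TKO replicate 1). The replication genes with higher values at an unadjusted p under 0.05 numbered 3 with median-ratio scaling (all tested genes 8.03%), 10 with the parietal endoderm covariate (10.4%), 2 with the epiblast covariate (9.8%), and 3 to 10 when 1 embryo was left out (8.11% to 15.2%). Those with lower values numbered 0 to 1 when 1 embryo was left out. The median of the 34 differences was 0.24 with the parietal endoderm covariate.

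Differences that turned sign were, with median-ratio scaling, -0.0114 for Cdc6, -0.0018 for Cdt1, -0.0011 for Mcm4, -0.0764 for Mcm10, -0.033 for Prim1, -0.0386 for Pold1, -0.0248 for Rfc1 and -0.0451 for Rfc2. With the epiblast covariate they were -0.0804 for Cdc6, -0.15 for Cdt1, 0.0213 for Gmnn, -0.0823 for Mcm2, -0.11 for Mcm7, -0.25 for Mcm10, -0.20 for Pola1, -0.0091 for Prim1, -0.18 for Pold1, -0.0489 for Rfc2, -0.0165 for Rpa1, 0.0421 for Rrm2 and -0.0017 for Ccne1, with the parietal endoderm covariate 0.0284 for Mcm3 and 0.0236 for Pcna, and with the decidua covariate -0.0059 for Mcm10. Leaving out 1 embryo turned some signs, with ranges of -0.0033 to 0.13 for Cdc6, -0.0034 to 0.16 for Cdt1, -0.18 to 0.0357 for Gmnn, -0.0713 to 0.03 for Mcm3, -0.12 to 0.11 for Mcm10, -0.0429 to 0.16 for Pola1, -0.0349 to 0.12 for Prim1, -0.065 to 0.11 for Pold1, -0.12 to 0.0354 for Pcna, -0.0049 to 0.0874 for Rfc1, -0.011 to 0.0828 for Rfc2, -0.12 to 0.0204 for Lig1 and -0.20 to 0.0271 for Rrm2. The cause was not tested.

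With the replicate number as a block, 0 genes passed the threshold, and 5 replication genes were higher and 0 lower at an unadjusted p under 0.05 (14.7% and 0%, beside 13.6% and 4.61% of all tested genes). The labels do not say that the numbers pair embryos, and the correlations of same-numbered deviations were -0.00451, 0.40, 0.26 and -0.0207, so only replicates 2 and 3 correlated best with their own number.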
